A study of Mus musculus with 12 samples.

Results

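A set of 10 genes of the necroptosis and death receptor pathways, *Mlkl*, *Zbp1*, *Ripk3*, *Ripk1*, *Casp8*, *Fadd*, *Cflar*, *Casp1*, *Fas* and *Tnfsf10*, was followed in mouse liver. They were taken by symbol from the 54838 genes of the count table, as parts of cell death machinery, and all 10 were found. Of these, *Mlkl*, *Zbp1* and *Ripk3* are the ones that the study measured in ileum as cell death genes.

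The study used 12 C57BL/6J mice, aged 8 to 14 weeks, in 4 groups of 3, and liver RNA of each mouse was sequenced. The study's methods describe its purchased C57BL/6J mice as female, and the labels do not give the sex. In 2 groups the mice drank plain water and in the other 2 they drank 25 mM ZnSO4, for 7 days in each case. On the last day each mouse was injected i.p. with PBS alone or with 200 µg dexamethasone (Dex), a synthetic glucocorticoid, in PBS, and livers were taken 2 h later. The groups are called water-PBS, which is the control, zinc-PBS, water-Dex and zinc-Dex. All 12 mice were of the same wild-type strain and none received TNF, so the values describe unchallenged liver. Levels are given as normalized read counts, which are raw counts divided by the size factor of each library, and differences as log2 fold changes from DESeq2 with their SE. A gene passed at an adjusted p under 0.05, with the adjustment made over all genes.

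Death receptor signalling starts when a ligand such as TRAIL, FasL or TNF binds its receptor. Adaptors such as FADD then gather caspase-8 and its relative cFLIP, and active caspase-8 leads to apoptosis and cleaves the kinases RIPK1 and RIPK3. Where caspase-8 is not active, RIPK3, which can be engaged by RIPK1 or by the nucleic acid sensor ZBP1, phosphorylates MLKL, and MLKL then breaks the plasma membrane, a lytic death called necroptosis. Several of these genes, *Mlkl*, *Zbp1* and *Tnfsf10* among them, are known targets of interferon, and glucocorticoids are known to repress interferon and NF-κB driven genes.

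The promoters of 4 of the genes are shown because the study was concerned with interferon-stimulated response elements (ISRE) in promoters of such genes. *Tnfsf10* and *Mlkl* are members whose transcripts were lower after Dex, as described further on, and *Ripk1* and *Cflar* are the members whose window holds an ISRE core. Each window runs from 250 bases before to 50 bases after a start site, 5′ to 3′ on the strand of the gene, and comes from RefSeq on GRCm38.p6. Capitals mark matches to the ISRE core, which is GAAA, any 2 bases and GAAA, or to the STAT site core TTCNNNGAA on either strand.
*Tnfsf10*, chr3:27316827-27317126, plus strand: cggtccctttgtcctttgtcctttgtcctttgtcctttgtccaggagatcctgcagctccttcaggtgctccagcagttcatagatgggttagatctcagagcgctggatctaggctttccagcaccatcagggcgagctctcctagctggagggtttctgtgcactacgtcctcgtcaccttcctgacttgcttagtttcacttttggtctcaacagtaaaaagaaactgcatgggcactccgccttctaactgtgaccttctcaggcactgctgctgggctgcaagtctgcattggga
*Mlkl*, chr8:111338156-111338455, minus strand: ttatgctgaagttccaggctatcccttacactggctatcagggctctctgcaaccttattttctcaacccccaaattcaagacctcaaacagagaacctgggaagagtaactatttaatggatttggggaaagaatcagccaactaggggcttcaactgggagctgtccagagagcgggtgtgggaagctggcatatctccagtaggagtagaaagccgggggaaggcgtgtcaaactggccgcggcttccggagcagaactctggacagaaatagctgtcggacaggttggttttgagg
*Ripk1*, chr13:34002624-34002923, plus strand: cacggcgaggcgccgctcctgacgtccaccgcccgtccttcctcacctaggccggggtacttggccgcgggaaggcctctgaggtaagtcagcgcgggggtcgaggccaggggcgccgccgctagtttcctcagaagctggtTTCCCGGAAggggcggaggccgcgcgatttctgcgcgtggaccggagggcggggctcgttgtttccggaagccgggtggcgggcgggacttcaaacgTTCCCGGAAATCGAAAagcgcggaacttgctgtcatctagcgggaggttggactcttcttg
*Cflar*, chr1:58711241-58711540, plus strand: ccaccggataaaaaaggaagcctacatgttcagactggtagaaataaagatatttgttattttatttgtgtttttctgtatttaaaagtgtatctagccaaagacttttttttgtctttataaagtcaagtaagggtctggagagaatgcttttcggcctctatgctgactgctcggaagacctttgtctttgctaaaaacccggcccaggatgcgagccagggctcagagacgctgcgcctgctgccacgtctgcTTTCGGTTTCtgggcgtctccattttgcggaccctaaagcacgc

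Of the 10 genes, 9 matched the RefSeq promoter table, and *Zbp1* had no window in it and was not searched. Windows were searched on both strands for 5 motifs, namely the ISRE and STAT cores just given, the NF-κB site (GGGA, any base, TTTCC), the glucocorticoid response element half-site TGTTCT and the metal response element core TGCNCNC. Among all 32851 windows of the table, 3.44% held the ISRE core, 8.30% the STAT core, 0.411% the NF-κB site, 19.0% the TGTTCT half-site and 51.0% the metal core. In the *Ripk1* window printed above, the ISRE core began 5 bases before the start site and STAT cores began 108 and 11 bases before it. The nearer STAT core shared bases with the ISRE core. In *Cflar* the ISRE core began 6 bases after the start site, and in *Fas* a STAT core began 93 bases before it. *Fadd* and *Casp1* each held a TGTTCT half-site. A second *Ripk1* window and that of *Fas* held the metal core. The windows of *Mlkl*, *Tnfsf10*, *Ripk3* and *Casp8* held none of the 5 motifs. A match is an exact match of letters, so near matches were not counted, and factors bound elsewhere were not looked for. The study's own motif search used HOMER over a longer stretch upstream, so the searches differ.

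The table held between 9091152 and 12303527 counts per library. Livers of zinc-drinking mice had more *Mt1*, a metallothionein gene that zinc induces, with a log2 fold change of 3.87 for zinc-PBS over water-PBS (DESeq2 adjusted p 1.2e-60). Dex raised *Mt1* as well (log2 4.44 for water-Dex over water-PBS), and zinc-Dex over water-Dex was 0.84. *Slc39a4*, which the study lists as lower with zinc in ileum and liver, differed by -1.50 in PBS-injected and -1.54 in Dex-injected mice. With Dex alone *Slc39a4* differed by -0.10 and did not pass. The Dex-injected livers had more *Tsc22d3*, a glucocorticoid receptor target (log2 2.28 for water-Dex over water-PBS, DESeq2 adjusted p 1.8e-55). The 6 hepatocyte markers, albumin included, summed to between 1184000 and 1703000 normalized counts in each library, and 5 of the 6 pancreas markers had 3 counts or fewer in every library, 3 of them 0. One zinc-PBS library, replicate 1, had much higher *Irf1*, *Il1b*, *Tnf* and *Tnfaip3* than the other PBS-injected livers, and values without it are given where it bears on a result. The p-values rest on the spread between the 3 mice of a group, estimated for each gene over all 4 groups in 1 fit. An outlying library therefore also enters the spread used in comparisons that do not hold it. For 1 gene taken alone, an exact permutation test over 3 and 3 mice has 0.10 as its smallest p.

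The 10 genes were all expressed in liver, at levels that differed widely. To compare genes with each other, normalized counts were divided by exon length. This length joins all annotated exons of a gene, and is 12.7 kb for *Cflar* and 2.89 kb for *Casp8*. The order of genes depends on it, and the lengths of the transcripts expressed were not measured. In water-PBS the highest levels were those of *Casp8*, the initiator caspase, at 128 ± 14.9 normalized counts per kb (SD, n = 3), *Cflar*, which encodes the caspase-8 inhibitor cFLIP, at 115 ± 29.1 and *Fas*, the receptor of FasL, at 105 ± 8.63. The mice of these 3 genes overlapped, so their order is not resolved. Below a gap followed *Zbp1* at 49.9 ± 10.3 and *Ripk1* at 44.8 ± 1.45, which overlapped each other. *Mlkl* (33.8 ± 3.60), *Casp1* (27.7 ± 6.21), *Tnfsf10* (23.3 ± 4.90) and *Fadd* (21.3 ± 3.04) came next, each overlapping its neighbour. *Ripk3*, the kinase that activates MLKL, was lowest at 7.96 ± 3.17 per kb, with no overlap with *Fadd*. The means of *Casp8* and *Ripk3* lay 16.1-fold apart.

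In water-Dex the lowest place went to *Tnfsf10*, at 4.67 ± 0.476 per kb, below *Ripk3* at 9.36 ± 0.539 without overlap. *Cflar* stood first there at 115 ± 5.45 per kb, 24.6-fold above *Tnfsf10*. In zinc-Dex *Tnfsf10* was again lowest by its mean, but its mice overlapped those of *Ripk3*. The 3 genes at the top, *Casp8*, *Cflar* and *Fas*, stood apart from the rest without overlap in each of the 4 groups.

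**Figure D1:**
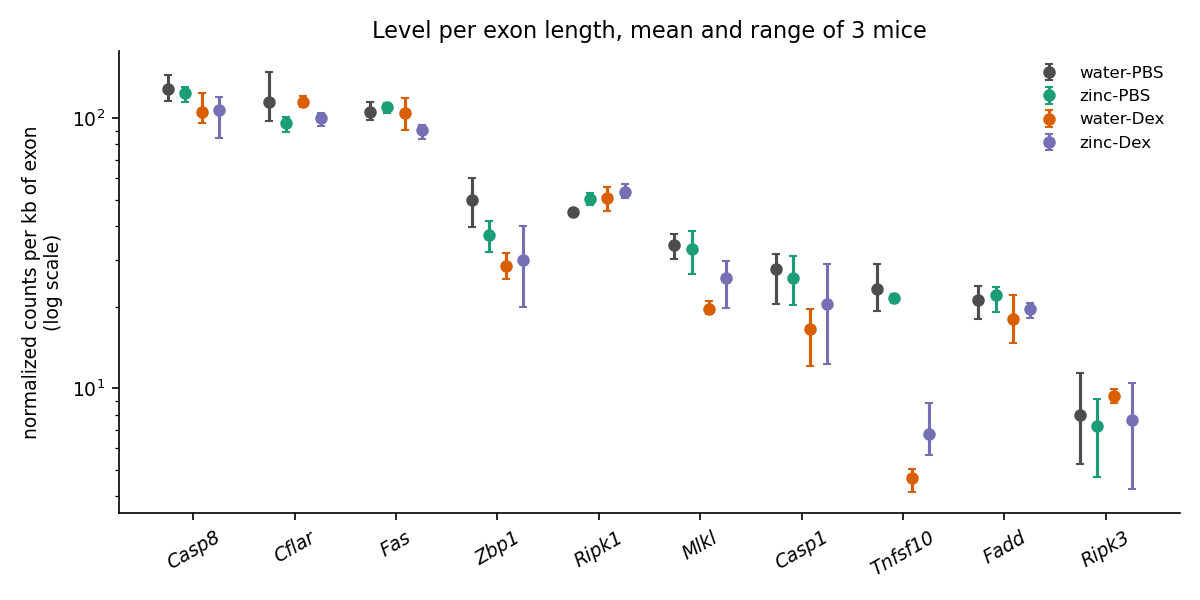
Level of each gene as normalized counts per kb of exon on a log scale, with points for the mean and bars for the lowest and highest of the 3 mice of each group. *Casp8*, *Cflar* and *Fas* stand highest in each group, and *Tnfsf10* drops from 23.3 in water-PBS to 4.67 in water-Dex.

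The first comparison asked what 7 days of zinc did to these genes in PBS-injected mice. No member passed between zinc-PBS and water-PBS with DESeq2, where 0.351% of all tested genes passed, and none had an unadjusted p under 0.05 or passed with edgeR. The median log2 difference of the 10 genes was -0.08, beside -0.001 over all genes tested. *Mlkl*, the effector of necroptosis, read 78.8, 69.2 and 85.7 in the water-PBS mice and 77.6, 61.2 and 87.8 in the zinc-PBS mice. These ranges overlapped throughout, and the log2 difference was -0.04 with a 95% interval of -0.46 to 0.38. *Zbp1*, the sensor that can engage RIPK3, read 176, 212 and 139.5 in water-PBS and 132, 113 and 148 in zinc-PBS. One zinc mouse lay within the control range and the others below it. The log2 difference was -0.43, with an interval of -0.87 to 0.01 (DESeq2 adjusted p 0.856).

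*Ripk1*, the kinase that stands between survival and death signals, read 385, 375 and 361 in water-PBS and 399, 441 and 421 in zinc-PBS. Each zinc mouse was above each control, but the difference was small (log2 0.17, SE 0.106) and did not pass (DESeq2 adjusted p 1.0). The exons of *Ripk1* overlap those of *Serpinb6a* on the opposite strand, and those of *Fadd* overlap *Faddos*, so both levels are uncertain if the counting ignored strand. *Cflar* read 1882, 1243 and 1242 in water-PBS against 1283, 1239 and 1126 in zinc-PBS, and its control mean rested on 1 high mouse. Its log2 difference of -0.26 became -0.03 without water-PBS replicate 1. The other 6 genes had log2 differences between -0.13 for *Ripk3* and 0.06 for *Fas*.

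Among Dex-injected mice, zinc-Dex against water-Dex asked whether zinc altered the same genes on top of Dex. No member passed with DESeq2, where 1.39% of all tested genes did, and again none had an unadjusted p under 0.05 or passed with edgeR. *Tnfsf10* had the largest difference. It read 21.8 to 26.6 in water-Dex and 29.8 to 46.7 in zinc-Dex, and each zinc-Dex mouse was above each water-Dex mouse. The log2 difference of 0.54 had an interval of -0.01 to 1.09 and a DESeq2 adjusted p of 0.497. *Mlkl* read 48.7, 43.6 and 43.5 in water-Dex, with 63.0, 45.5 and 68.2 in zinc-Dex, and 1 zinc-Dex mouse lay inside the water-Dex range (log2 0.38, interval -0.08 to 0.85). *Zbp1* differed by 0.08 (interval -0.39 to 0.54). The median over the 10 genes was 0.08, beside 0.002 over all genes tested.

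**Figure D2:**
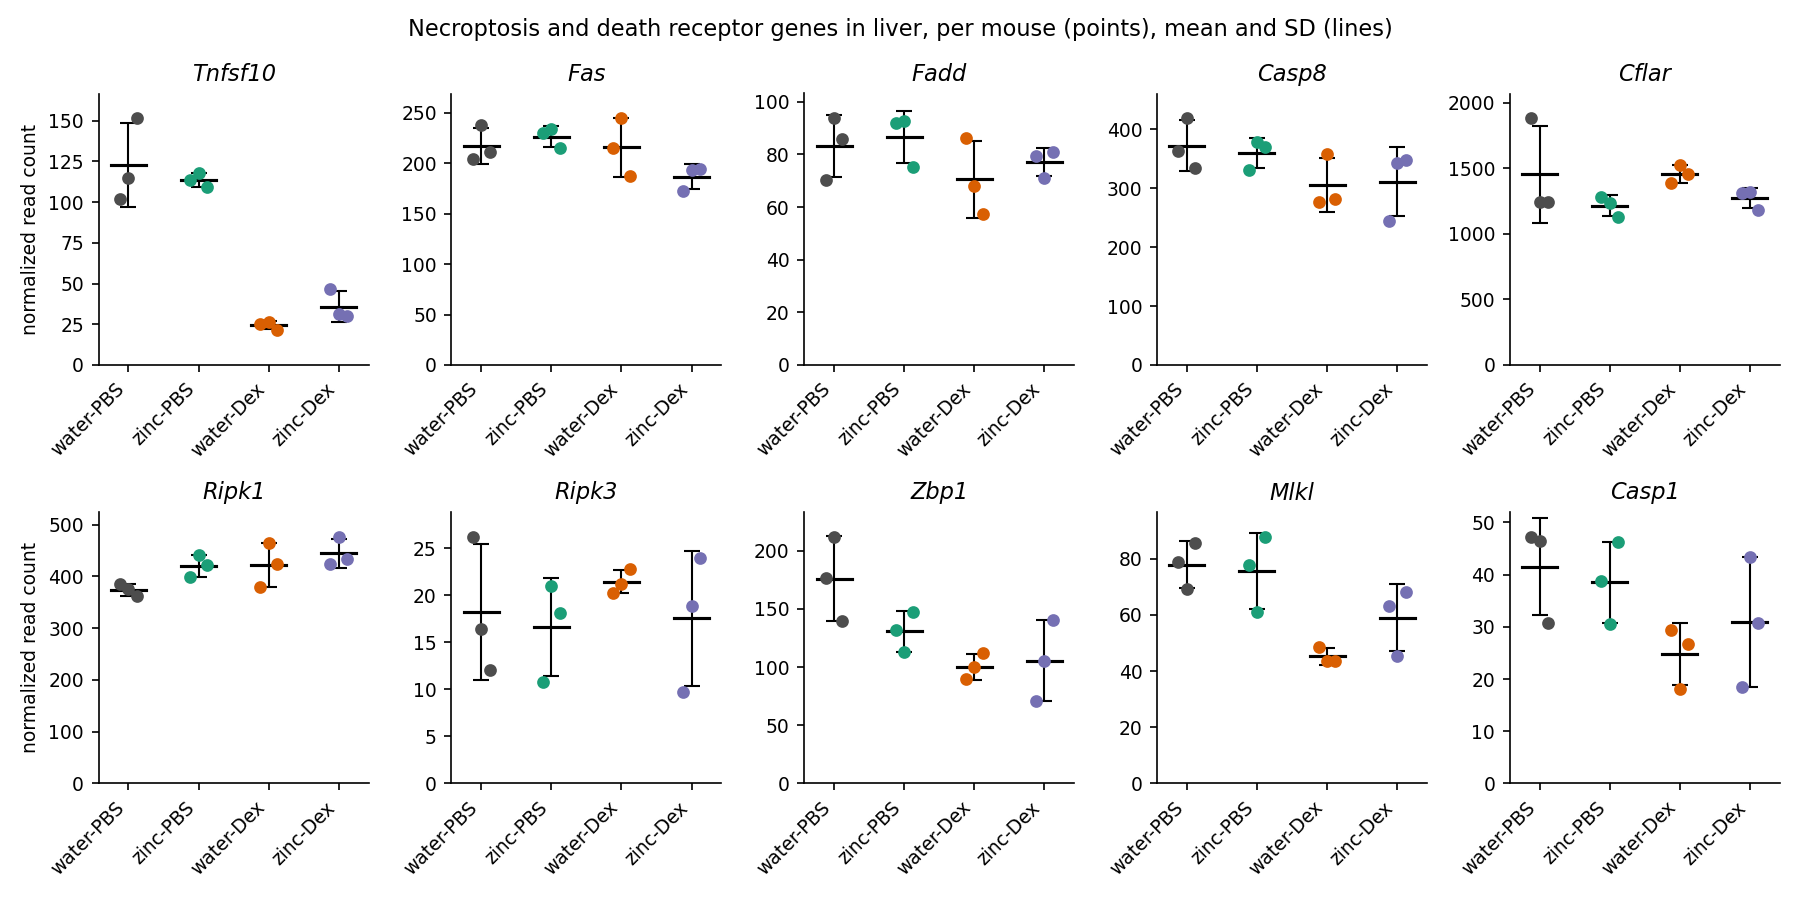
Normalized read count of each gene in each mouse (points) with the mean and SD of each group of 3 (black lines), on axes that start at 0. *Tnfsf10* falls from 102 to 152 in water-PBS to 21.8 to 26.6 in water-Dex, while *Mlkl* and *Zbp1* fall less and the other 7 genes do not pass.

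Members of the list passed only in comparisons of Dex with PBS, in which 20.3% to 23.8% of all tested genes passed. In water-drinking mice, 3 of the 10 genes were lower and passed, *Tnfsf10*, *Zbp1* and *Mlkl*, and 0 were higher. Over all tested genes 22.0% passed in this comparison and 10.1% passed as lower, so a count of 3 in 10 is to be read against that background. The median log2 difference was -0.27 for the 10 genes and -0.010 for all genes tested. In zinc-drinking mice, zinc-Dex against zinc-PBS, 1 of the 10 passed, *Tnfsf10*, again lower. There 20.3% of all tested genes passed and 9.16% passed as lower. Zinc-Dex against water-PBS, which combines both treatments, had 2 members passing, *Tnfsf10* and *Zbp1*, both lower, with 23.8% of all tested genes passing and 10.9% passing as lower. With a log2 fold change beyond 0.8 asked for as well, 2, 1 and 1 members passed in these 3 comparisons, beside 9.79%, 9.75% and 11.0% of all tested genes. The last comparison shares its libraries with the others and is given beside them, not as further evidence.

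*Tnfsf10* (ENSMUSG00000039304, mm10 chromosome 3, 27317028 to 27342427, plus strand) encodes TRAIL, the ligand of the death receptor DR5. Its level was 102, 115 and 152 in water-PBS, 114, 118 and 109.5 in zinc-PBS, 25.4, 26.6 and 21.8 in water-Dex, with 46.7, 31.1 and 29.8 in zinc-Dex. The Dex mice and the PBS mice did not overlap, with or without zinc. Dex lowered it 4.99-fold in water-drinking mice (log2 -2.32, SE 0.254, DESeq2 adjusted p 3.6e-18) and 3.18-fold in zinc-drinking mice (log2 -1.67, SE 0.236, DESeq2 adjusted p 4.4e-11). Both calls held in all 13 alternative fits. The raw counts behind these values were 22 to 138 per library. The difference between the 2 Dex effects, tested as the interaction, was 0.65 on the log2 scale with an interval of -0.03 to 1.33 and did not pass (DESeq2 adjusted p 0.999).

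*Mlkl* (ENSMUSG00000012519, chromosome 8, 111311797 to 111338177, minus strand) fell from 77.9 ± 8.29 in water-PBS to 45.3 ± 2.98 in water-Dex (SD, n = 3). The water-Dex mice lay within a span of 43.5 to 48.7, all below the lowest control at 69.2. The fall was 1.71-fold (log2 -0.78, SE 0.232, DESeq2 adjusted p 0.00572) and held in all 13 alternative fits, with adjusted p between 0.00393 and 0.0488. It did not reach the study's log2 fold change threshold of 0.8. In zinc-drinking mice the levels were 77.6, 61.2 and 87.8 with PBS and 63.0, 45.5 and 68.2 with Dex, so the groups overlapped. That difference was -0.35 (interval -0.79 to 0.08, DESeq2 adjusted p 0.301). The interaction of 0.43 had an interval of -0.20 to 1.05, so the Dex effects with and without zinc were not shown to differ.

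*Zbp1* (ENSMUSG00000027514, chromosome 2, 173206612 to 173218923, minus strand) read 176, 212 and 139.5 in water-PBS and 89.3, 99.97 and 112 in water-Dex, with no overlap. It fell 1.76-fold (log2 -0.81, SE 0.230, DESeq2 adjusted p 0.00323). The call was lost when water-PBS replicate 2, the highest mouse, was left out (log2 -0.65, DESeq2 adjusted p 0.0597). In zinc-drinking mice it read 132, 113 and 148 with PBS and 70.6, 105.5 and 140.3 with Dex. These overlapped, and the difference of -0.30 (interval -0.76 to 0.15) did not pass (DESeq2 adjusted p 0.418). Against water-PBS the zinc-Dex mice were lower (log2 -0.74, SE 0.229, DESeq2 adjusted p 0.00824), a call that was lost without water-PBS replicate 2 (log2 -0.58, adjusted p 0.0962) and without zinc-Dex replicate 1 (log2 -0.51, adjusted p 0.0812). The interaction was 0.51, with an interval of -0.13 to 1.15.

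**Figure D3:**
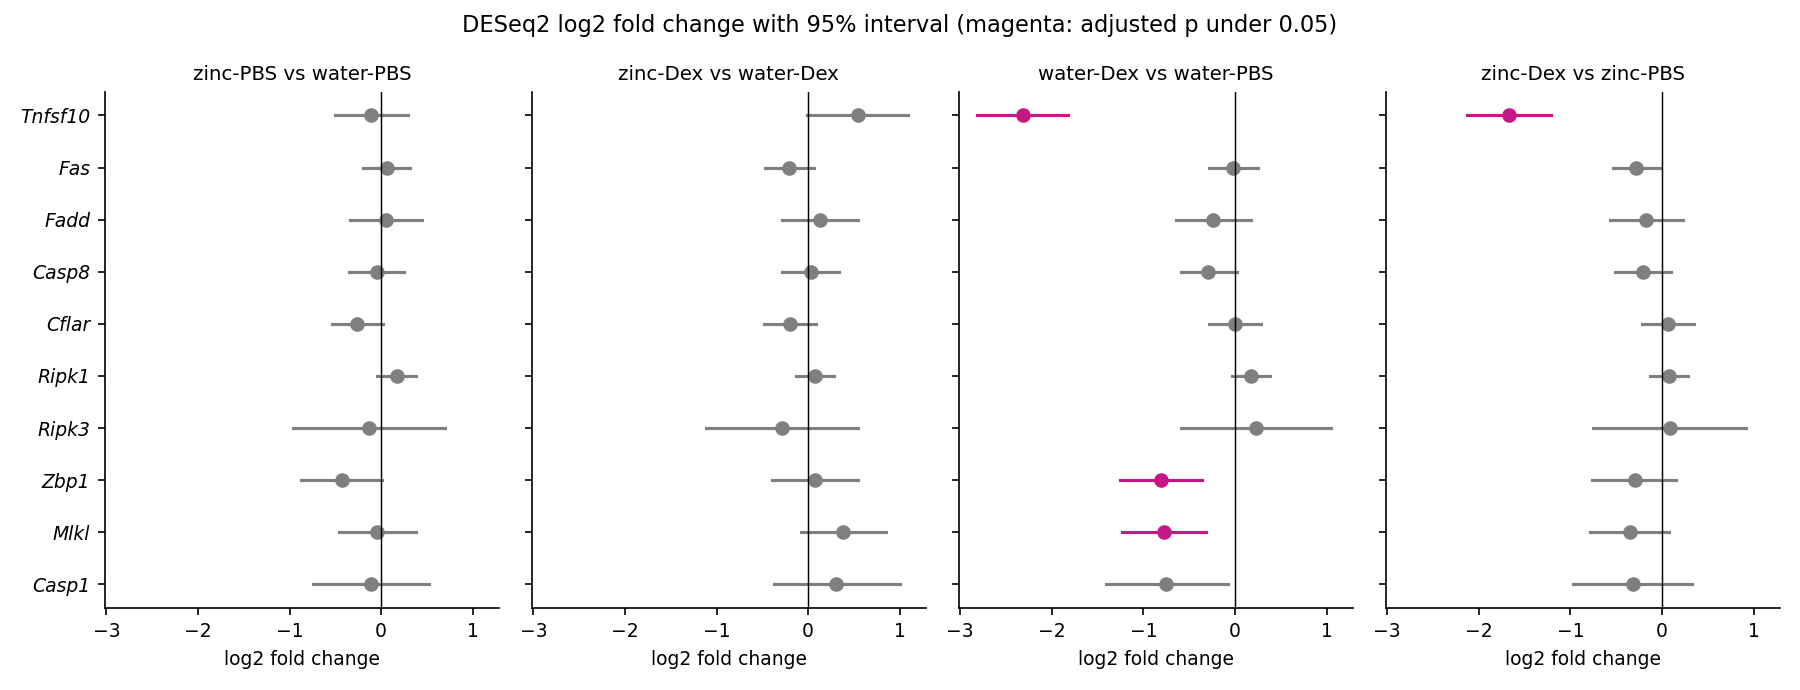
DESeq2 log2 fold change (x axis) of each gene (y axis) with its 95% interval for the 2 zinc and the 2 Dex comparisons, in magenta where the adjusted p is under 0.05. The passing values are *Tnfsf10* at -2.32 and -1.67 in the 2 Dex comparisons and *Zbp1* at -0.81 and *Mlkl* at -0.78 in water-drinking mice.

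The remaining members did not pass in either Dex comparison. *Casp1*, the caspase of the inflammasome, read 47.3, 46.4 and 30.8 in water-PBS and 29.4, 18.1 and 26.7 in water-Dex, just short of overlap. Its difference of -0.75 was nearly as large as that of *Mlkl*, but at 17 to 51 raw counts per library its SE was 0.341 and it did not pass (DESeq2 adjusted p 0.105). With zinc it read 38.8, 30.6 and 46.2 after PBS and 18.5, 43.3 and 30.8 after Dex, which overlapped.

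*Fas* read 204, 238 and 211 in water-PBS and 215, 245 and 187 in water-Dex, a difference of -0.02 (interval -0.28 to 0.25). With zinc it read 230.2, 234 and 215 after PBS and 173, 193 and 194 after Dex. Each zinc-Dex mouse lay below each zinc-PBS mouse, but the difference of -0.28 did not pass (DESeq2 adjusted p 0.146). *Fadd*, the adaptor shared by Fas and the TRAIL receptor, read 70.4, 93.7 and 85.7 in water-PBS, 92.1, 92.7 and 75.1 in zinc-PBS, 86.3, 68.1 and 57.4 in water-Dex, with 79.3, 71.1 and 80.7 in zinc-Dex. All 4 groups overlapped.

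*Casp8* read 362, 419 and 334 in water-PBS and 277, 357 and 281 in water-Dex. The groups overlapped, and the difference of -0.29 had an interval of -0.59 to 0.02. In zinc-PBS it read 331, 378 and 370.3 and in zinc-Dex 244, 342 and 347, a difference of -0.21 (interval -0.51 to 0.10). *Cflar*, its inhibitor, was at 1390, 1528 and 1453 in water-Dex, with 1312, 1320 and 1184 in zinc-Dex. Dex changed it by 0.00 without zinc (interval -0.28 to 0.28) and 0.06 with zinc (interval -0.22 to 0.35).

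*Ripk1* read 379.7, 464 and 424 in water-Dex, with 424, 477 and 433 in zinc-Dex. Neither Dex comparison passed, and zinc-Dex against water-PBS, at log2 0.25 (interval 0.04 to 0.46), had an adjusted p of 0.0748 with DESeq2 and 0.0439 with edgeR. *Ripk3* (ENSMUSG00000022221, chromosome 14, 55784995 to 55788865, minus strand) had only 9 to 25 raw counts per library. It read 26.3, 16.4 and 12.1 in water-PBS, 10.8, 21.0 and 18.1 in zinc-PBS, 20.3, 21.3 and 22.8 in water-Dex, with 9.78, 18.9 and 24.0 in zinc-Dex. Its intervals, such as -0.59 to 1.05 for water-Dex against water-PBS, show how large a change could have gone undetected at this depth.

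The interaction asked whether zinc altered the response to Dex. No member passed with DESeq2, where 0.0229% of all tested genes did, none had an unadjusted p under 0.05 and none passed with edgeR. The median interaction was 0.08 over the 10 genes and 0.025 over all genes tested. The 3 genes that fell with Dex in water-drinking mice had interactions of 0.43, 0.51 and 0.65, each with an interval that spanned 0.

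Liver RNA comes from many cell types, and in bulk samples fewer cells of a type and less RNA per cell cannot be told apart. The summed level of the 13 lymphocyte and NK cell markers was lower with Dex, in water-drinking and in zinc-drinking mice. It was 75.8 to 95.6 normalized counts in water-PBS, 84.2 to 107 in zinc-PBS, 48.7 to 52.4 in water-Dex and 56.7 to 69.5 in zinc-Dex, without overlap between PBS and Dex. In water-Dex against water-PBS 10 of the 13 had an adjusted p and 2 passed, both lower. In zinc-Dex against zinc-PBS 11 had an adjusted p and 0 passed with DESeq2, 2 had an unadjusted p under 0.05, and edgeR called 2 of the 4 markers it could fit. The list did not move as one, since the NK cell genes *Gzma* and *Klrb1c* had log2 differences of 0.14 and 0.19 without zinc and of 0.47 and 0.90 with zinc, none of which passed. None of the 13 was at 0 in every library, and *Ncr1* had 3 counts or fewer in each. The 6 markers of any leukocyte summed to 1789 to 2087 in water-PBS and 1578 to 1834 in water-Dex, with *Coro1a* and *Lcp1* passing as lower. In zinc-PBS they summed to 1897 to 2013 and in zinc-Dex to 1636 to 1691, again with 2 of 6 lower. The 8 neutrophil and monocyte markers summed to 82.4 to 101 in water-PBS, 89.2 to 202 in zinc-PBS, 52.1 to 87.1 in water-Dex and 53.3 to 90.2 in zinc-Dex, and *Ccr2* passed as lower with Dex in both. The value of 202 belongs to zinc-PBS replicate 1, with *S100a9* at 60.5 and *S100a8* at 37.9 in that library. The part of these cells in the results was not tested.

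The 11 Kupffer cell and macrophage markers summed to 7181 to 9604 in water-PBS, 8318 to 8678 in zinc-PBS, 7629 to 9641 in water-Dex and 7648 to 8636 in zinc-Dex, which overlapped, and their median log2 difference with Dex was -0.02 without zinc and -0.05 with zinc. The hepatocyte markers moved with Dex too. Their sum was 1184000 to 1389000 in water-PBS, 1255000 to 1389000 in zinc-PBS, 1552000 to 1652000 in water-Dex and 1605000 to 1703000 in zinc-Dex, without overlap between PBS and Dex, and 4 of the 6 were higher in each of the 2 Dex comparisons. Their part in the results was not tested. Of 7 sinusoidal endothelial markers 2 were higher and 1 lower with Dex in both comparisons, and among 6 stellate cell markers 1 was lower without zinc and 1 higher with zinc. Of the 6 gut epithelium markers, *Vil1* and *Lyz1* were lower in zinc-Dex against zinc-PBS, where the zinc-PBS livers were the ones that stood apart. *Vil1* read 25.3, 20.1 and 14.5 in zinc-PBS against 6.30 to 10.01 in water-PBS and 3.26 to 6.73 in zinc-Dex. *Lyz1* read 64.1, 145 and 21.7 in zinc-PBS against 9.88 to 19.1 in water-PBS and 4.34 to 17.8 in zinc-Dex.

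**Figure D4:**
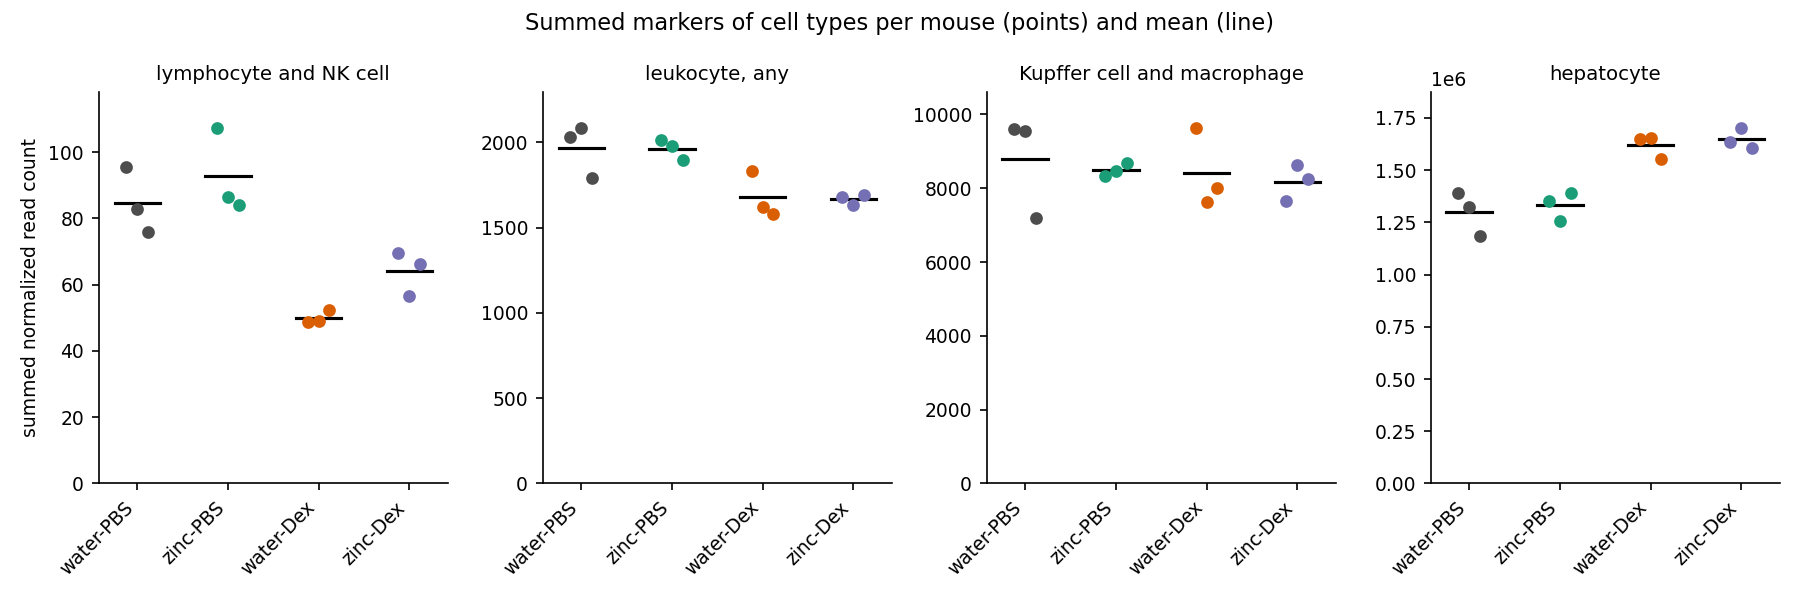
Summed normalized read counts of 4 cell type marker lists in each mouse (points) with the group mean (line), on axes that start at 0. The lymphocyte and NK cell sum is 75.8 to 107 in the PBS-injected mice and 48.7 to 69.5 in the Dex-injected mice, while the Kupffer cell sum overlaps between groups.

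Around these 10 genes, 80 other genes of the same pathways were listed by role and counted in each comparison. Dex changed a part of them. In water-drinking mice 24 of the 80 passed, 7 higher and 17 lower, and in zinc-drinking mice 24 passed, 6 higher and 18 lower. In the first comparison 73 of the 80 had an adjusted p, and in the second 77. Over all tested genes the shares passing as higher were 11.8% and 11.1%, beside the 10.1% and 9.16% passing as lower. Zinc-Dex against water-PBS gave 20, of which 6 were higher and 14 lower, where 12.9% of all tested genes passed as higher. For zinc the count with DESeq2 was 0 of 80 in PBS-injected and 0 in Dex-injected mice, and it was 0 for the interaction. Over all tested genes 0.351%, 1.39% and 0.0229% passed there. Unadjusted p-values under 0.05 numbered 12, 10 and 5 in these last 3, and edgeR called 0 in each. The 2 Dex comparisons share no library, though both took the spread of each gene from the same fit of all libraries. They had 5 genes higher and 14 lower in common. The 5 were 71.4% of those higher without zinc and 83.3% of those higher with zinc, and the 14 were 82.4% and 77.8% of those lower. The share in common over all tested genes was not worked out, so these shares are not read as particular to the list.

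Of the 5 other death ligands *Tnfsf12*, which encodes TWEAK, read 34.5 to 59.8 normalized counts across all mice and did not pass. *Tnf* had 0 counts in all 6 Dex-injected mice, against 4.20, 0.910 and 4.39 normalized counts in water-PBS and 23.5, 2.62 and 6.34 in zinc-PBS. It passed as lower in zinc-Dex against zinc-PBS (DESeq2 adjusted p 0.00157), the comparison that holds zinc-PBS replicate 1. Without that library it got no adjusted p, nor did it in water-Dex against water-PBS. *Fasl*, the ligand of Fas, was at 0 to 3.96 normalized counts across all mice, too few for a comparison.

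Of the 6 other receptors and decoys 2 rose and 1 fell with Dex, with and without zinc. *Tnfrsf1b*, the second TNF receptor, rose from 251, 283 and 267 in water-PBS to 610.2, 635 and 662 in water-Dex, and from 342, 246 and 258 in zinc-PBS to 689, 709.8 and 667 in zinc-Dex. No Dex mouse overlapped a PBS mouse. The log2 changes were 1.25 and 1.29 (DESeq2 adjusted p 2.8e-22 and 2.4e-24). *Tnfrsf1a*, the TNF receptor that carries a death domain, fell from 960 ± 53.4 to 666 ± 30.1 without zinc (log2 -0.53, DESeq2 adjusted p 4.2e-06) and by 0.50 on the log2 scale with zinc. *Tnfrsf21*, which encodes the death receptor DR6, rose by 0.49 without zinc and 0.84 with zinc, and the value without zinc lost its call in 5 of 13 alternative fits, those without water-Dex replicate 1 or 3 or water-PBS replicate 3 among them. *Tnfrsf10b*, the receptor for TRAIL, had a mean of 3.94 normalized counts over all mice and did not pass.

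Here and below, changes without zinc and with zinc are those with Dex in water-drinking and in zinc-drinking mice. Of 10 adaptors and ubiquitin ligases of the receptor complex 2 passed without zinc and 1 with zinc. *Rnf31*, the catalytic subunit of the linear ubiquitin ligase, fell by 0.54 without zinc and by 0.81 with zinc. The value without zinc lost its call without water-Dex replicate 3, water-PBS replicate 2 or water-PBS replicate 3. *Traf5* rose without zinc (log2 0.93, DESeq2 adjusted p 0.00590), though an opposite-strand gene overlaps it and the call was lost without water-Dex replicate 3. *Traf2* was lower in zinc-Dex against water-PBS (log2 -0.49, DESeq2 adjusted p 0.0404), a call lost in 8 of 13 alternative fits, among them those without any 1 water-PBS library or zinc-Dex replicate 1 or 3. Of 12 genes of deubiquitinases, kinases and their partners around RIPK1, 1 fell without zinc and 3 passed with zinc. The 1 without zinc was *Tnip1*, a partner of A20 (log2 -0.71, DESeq2 adjusted p 0.00347). One of the 3 with zinc was *Tnfaip3*, which encodes A20 and read 726, 44.6 and 81.5 in zinc-PBS and 42.4, 56.6 and 44.2 in zinc-Dex. Its log2 difference of -2.57 became -0.40 without zinc-PBS replicate 1, and its call was lost (DESeq2 adjusted p 0.477). *Tnip1* with zinc was lost in the same way (log2 -0.69, then -0.55 with DESeq2 adjusted p 0.0562), and also without zinc-Dex replicate 2. In water-PBS *Tnfaip3* read 37.8, 36.4 and 46.1. The study lists *Tnfaip3* as raised by zinc in liver, but zinc-PBS against water-PBS did not pass here (log2 2.82, DESeq2 adjusted p 0.157). That log2 difference was 0.65 without zinc-PBS replicate 1. Without zinc-PBS replicate 2 it passed (DESeq2 adjusted p 0.00489). *Mapkapk2*, a kinase that phosphorylates RIPK1, rose with Dex in zinc-drinking mice, by 0.39 on the log2 scale in zinc-Dex against zinc-PBS.

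The mitochondrial arm held the largest rise of the list. *Bcl2l1*, which encodes the anti-apoptotic protein Bcl-xL, read 274, 276 and 273.5 in water-PBS and 335, 282 and 314 in zinc-PBS, and 2477, 2594 and 2644 in water-Dex, with 2685, 2504 and 2567 in zinc-Dex. The log2 changes with Dex were 3.23 and 3.06 (SE 0.0878 and 0.0845, DESeq2 adjusted p 8.0e-292 and 1.5e-282). *Bbc3*, which encodes the pro-apoptotic protein PUMA, fell by 1.62 and 1.28 on the log2 scale (DESeq2 adjusted p 1.2e-05 and 0.000397), and *Bid*, cut by caspase-8 to reach mitochondria, fell by 0.69 and 0.75, though an opposite-strand gene overlaps *Bid*. *Cycs*, the gene of cytochrome c, rose by 0.31 and 0.37, with the first call lost in 6 of 13 alternative fits, among them those without water-Dex replicate 2 or 3 or water-PBS replicate 2 or 3, and the second lost without zinc-PBS replicate 2. *Bcl2l11*, which encodes the pro-apoptotic protein BIM, was higher in zinc-Dex against water-PBS (log2 0.67, DESeq2 adjusted p 0.0381), a call lost in 7 of 13 alternative fits, among them those without water-PBS replicate 1 or 2 or any zinc-Dex library. The other 10 of the 14 genes, *Bax*, *Mcl1* and *Apaf1* among them, did not pass in either Dex comparison. Of 5 caspases *Casp9*, the caspase of the apoptosome, fell by 0.64 without zinc and 0.78 with zinc, again with an opposite-strand gene, and *Casp2* fell without zinc (log2 -0.64, DESeq2 adjusted p 0.0217). The *Casp2* call was lost in 6 of 13 alternative fits, 5 of which left out 1 library (water-Dex replicate 2 or 3 or any water-PBS library), and with zinc its difference of -0.53 had a DESeq2 adjusted p of 0.0643.

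Of the 9 inflammasome genes 3 fell without zinc and 2 with zinc. *Il1b*, the cytokine that caspase-1 matures, read 29.4, 26.4 and 28.6 in water-PBS and 4.06, 0 and 2.97 in water-Dex (log2 -3.57, DESeq2 adjusted p 7.8e-05). With zinc it read 134.5, 24.5 and 39.8 after PBS and 0, 4.44 and 0.961 after Dex, a log2 difference of -5.23 that was -4.19 without zinc-PBS replicate 1. The others that fell were *Nlrp3*, an inflammasome sensor, with and without zinc, and *Casp4*, without zinc, each at a mean below 20 normalized counts.

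Of 7 genes of other inputs to RIPK3 and of membrane repair, 2 passed without zinc, 1 in each direction, and 3 with zinc, 1 higher and 2 lower. *Tlr3*, a receptor for double-stranded RNA, fell from 87.2, 77.3 and 91.2 in water-PBS to 46.7, 41.5 and 37.6 in water-Dex (log2 -1.02, DESeq2 adjusted p 2.2e-05), and by 0.78 with zinc. *Ticam1*, which encodes its adaptor TRIF, a RHIM protein like ZBP1, rose from 220.5, 176 and 178 to 312, 303 and 302 (log2 0.68, DESeq2 adjusted p 1.0e-05) and by 1.13 with zinc. *Adar*, the RNA editing enzyme that limits ZBP1 activation, fell with Dex by 0.46 in zinc-drinking mice (DESeq2 adjusted p 0.0133). This call was lost without zinc-Dex replicate 1 or 2 or zinc-PBS replicate 2 or 3. Opposite-strand genes overlap both *Adar* and *Tlr3*.

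The 12 interferon signalling genes held 7 of the 24 genes that passed without zinc, 6 lower and 1 higher, and 6 of those that passed with zinc, all lower. *Irf1*, a transcription factor of the interferon response, read 466, 469 and 495 in water-PBS and 98.5, 63.8 and 84.1 in water-Dex. The log2 difference of -2.54 (DESeq2 adjusted p 1.4e-06) passed in all 13 alternative fits. In zinc-PBS *Irf1* read 1824, 517 and 575 and in zinc-Dex 73.9, 56.6 and 83.6, a difference of -3.77 that was -2.93 without zinc-PBS replicate 1. An opposite-strand gene overlaps it. *Irf2*, known to antagonize IRF1, rose without zinc (log2 0.51, DESeq2 adjusted p 6.4e-05). *Ifnar1*, which encodes a chain of the type I interferon receptor, fell by 0.30 on the log2 scale without zinc and by 0.43 with zinc, and *Ifngr2*, of the interferon-γ receptor, fell by 0.44 and 0.71. Without zinc these calls were lost in 6 and 9 of 13 alternative fits, for both genes without water-Dex replicate 3 or water-PBS replicate 1 or 2, for *Ifnar1* also without water-Dex replicate 2 and for *Ifngr2* also without water-Dex replicate 1 or water-PBS replicate 3. In zinc-Dex against water-PBS, *Irf7*, an interferon-induced transcription factor that an opposite-strand gene overlaps, was lower (log2 -0.41, DESeq2 adjusted p 0.0139), a call lost without water-PBS replicate 1 or 2 or zinc-Dex replicate 3. *Stat2* fell from 653, 686 and 785 to 439.6, 446 and 496 without zinc (log2 -0.62, DESeq2 adjusted p 8.0e-06) and by 0.70 with zinc. *Irf9*, a subunit of the factor that binds the ISRE, fell by 0.34 and 0.51, and the value without zinc lost its call in 6 of 13 alternative fits, those without water-Dex replicate 1 or 2 or water-PBS replicate 2 or 3 among them.

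**Figure D5:**
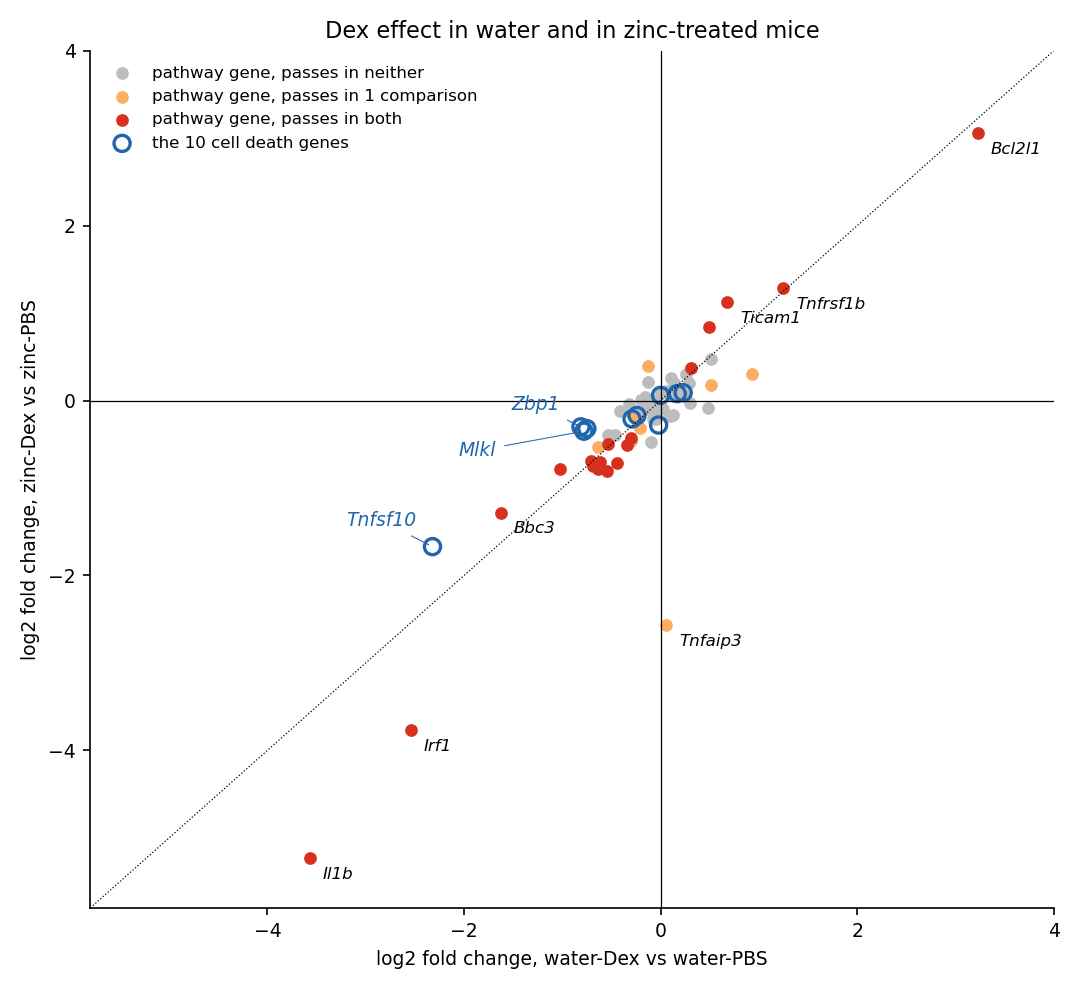
Log2 fold change with Dex in water-drinking mice (x axis) and in zinc-drinking mice (y axis) for the 10 genes (open blue circles) and the 66 other pathway genes whose mean was 20 normalized counts or more (filled). The dotted line marks equal values, with *Bcl2l1* at 3.23 and 3.06 near it and *Tnfaip3* at 0.06 and -2.57 far from it.

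The genes with the pattern most like each of the 3 members that fell were looked for among 9574 genes whose mean was 50 normalized counts or more. Likeness was the root mean square difference of log2 levels, each centred on its own mean, over the 12 libraries. For *Tnfsf10*, which itself varied by 1.03 on this measure, they were *Cldn3* (0.204), *Fign* (0.254) and *Ppfibp2* (0.255). For *Mlkl*, which varied by 0.359, they were *Mroh2a* (0.134), *Pycrl* (0.148) and *Acot4* (0.148). For *Zbp1*, which varied by 0.413, they were *Tmem43* (0.192), *Rsad2* (0.193) and *H2-DMa* (0.201).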

How the data were processed

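Total RNA from 12 livers went into stranded TruSeq libraries, read single-end on a NextSeq 500. Reads were mapped by the authors to mm10 with HISAT2 2.0.4 and counted per Ensembl gene with featureCounts, leaving out multimapping reads. The deposited table holds these raw counts for each mouse. Which annotation release and strand setting were used is not given in the sources used here. Gene symbols, coordinates and exon lengths came from GENCODE M21.

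All 12 libraries were fitted together with DESeq2 1.42.0 (R 4.3.3), with 1 mean per group, and compared by Wald tests with Benjamini-Hochberg adjustment over all genes and default filters. The study's fold change threshold of 0.8 was an alternative. Others were edgeR 4.0.16 (quasi-likelihood, TMM), TMM factors in DESeq2, a filter of 10 counts or more in 3 or more libraries, a replicate block, only the libraries compared, no independent filtering, no Cook's distance, and each library left out. The fitting was tested on simulated data in which 200 genes were changed. In the simulated data DESeq2 made 214 calls, 20 of them false, and edgeR made 204, 12 of them false. The members, lists and motifs were chosen with earlier results of these data known. Text names all 10 members and, from the pathway list, up to 20 per comparison by size of change among those that passed and averaged 20 normalized counts or more, plus *Tnf*, *Tnfrsf1a* and *Irf1*. Some items are not reported here. *Fasl*, *Tnfsf12*, *Tnfrsf10b*, *Nlrp3*, *Casp4*, *Bax*, *Mcl1* and *Apaf1* were added after their values were seen.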

Additional observations from a re-analysis of the deposited data

How the results depend on the processing

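Of the 60 results for single members, 57 kept their side of the threshold in each alternative that gave an adjusted p, and the exceptions, *Zbp1* in 2 comparisons and *Ripk1* in 1, are described with those genes. With that threshold added, members passing fell from 3 to 2 in water-Dex against water-PBS, where *Mlkl* was lost. They fell from 2 to 1 in zinc-Dex against water-PBS, where *Zbp1* was lost. Pathway genes passing fell from 24 to 9 for water-Dex against water-PBS and from 24 to 11 for zinc-Dex against zinc-PBS. For zinc-Dex against water-PBS they fell from 20 to 7, and all these falls are by construction. Leaving out 1 library gave 15 to 21, 20 to 23 and 14 to 18 pathway genes in these comparisons, with the lowest first count without water-Dex replicate 3. It gave 0 to 1 for the pathway genes in both zinc comparisons and in the interaction, 2 to 3 members in water-Dex against water-PBS, 1 in zinc-Dex against zinc-PBS and 1 to 2 in zinc-Dex against water-PBS. The cause of these shifts, beyond fewer samples, was not tested. Samples with the same replicate number did not deviate together (r from -0.204 to 0.189 over 18 pairs, and 3 of 12 libraries were closest to their own number). With the replicate number as a block, 3, 1 and 2 members passed in the 3 Dex comparisons and 17, 21 and 15 pathway genes, and 0 elsewhere. Across 3103 alternative values of single genes, those with the fold change threshold included, 2931 kept their side of the threshold, 157 lost it, 15 gained it and 0 reversed. Replacing size factors by TMM moved the median of all genes by 0.006 or less in size. Depth limits genes with few counts, such as *Ripk3* and *Casp1* among the members.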
